A study of Mus musculus with 4 samples.

Results

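The MAP kinase phosphatases of the Dusp family were examined in hippocampus of mice carrying a conditional mutation of Atp6ap2. The members were taken by gene symbol, as Dusp1, Dusp2, Dusp4, Dusp5, Dusp6, Dusp7, Dusp8, Dusp9, Dusp10 and Dusp16, and all 10 were found among the 23466 gene symbols of the table. A gene with several RefSeq records was represented by the record with the highest mean over the libraries. The members had 11 distinct records, because Dusp16 had 2. All 10 members passed the filter on low values and were tested.

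The tested animals were 2 mutants, numbered 38 and 39, which the labels call ko in the titles and conditional het in the condition field, with the genotype Atp6ap2Camk2aCre/0. They were compared with 2 wild-type mice, numbered 11 and 73. All were on the C57BL/6N strain and were sampled at postnatal day 30. The Camk2a promoter is used to drive Cre recombinase in forebrain excitatory neurons. The glia, vessels and interneurons in the tissue are therefore outside the cells meant to be targeted. Where recombination took place was not tested here. The labels do not state whether each RNA sample came from 1 animal. The p-values therefore set a difference against the spread between these libraries, and not between a known number of animals. In the limma fit used below, that spread was estimated for each gene partly from other genes, and the SEs rest on it too.

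Mitogen-activated protein kinases (ERK, JNK and p38) are switched on when a threonine and a tyrosine in the same loop are phosphorylated. The Dusp phosphatases remove both phosphates and return the kinase to its resting state. Several of their genes are themselves switched on by the kinases, which makes a negative feedback loop. In the brain, transcripts such as Dusp1, Dusp4, Dusp5 and Dusp6 are known to respond to neuronal activity, growth factors and stress. The family is usually divided into inducible enzymes of the nucleus, cytoplasmic enzymes that act on ERK, and enzymes that act mainly on JNK and p38.

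Values are scaled read equivalents, the deposited signal in aligned bases divided by 42, the length of a read. They are scaled to library size and not to transcript length. Before scaling, the libraries held 17543464 to 18328405 read equivalents over genes in the mutants, and 10023033 (wild-type 73) to 18339838 (wild-type 11) in the wild-types. The targeted gene, Atp6ap2, had 2551 and 2522 scaled read equivalents in mutants 38 and 39, against 2312 and 2637 in wild-types 11 and 73. The groups overlapped, and a value over the whole transcript cannot show the loss of an exon or a loss in a fraction of the cells. Neuronal markers were present throughout, with 0 of 11 at 0 in any library. Choroid plexus markers divided both groups. Their summed level over 13 genes was 123200 in mutant 38 and 7722 in mutant 39, against 73760 in wild-type 11 and 7422 in wild-type 73.

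Dusp1 was the member that stood apart. Its mean signal in the mutants was 1.93 times that in the wild-types, with both mutants above both wild-types. The other 9 members had log2 fold changes between -0.35 (Dusp5) and 0.41 (Dusp10). None of the 10 members passed an adjusted p of 0.05 in limma, where 0.00552% of all 18127 genes tested passed. At an unadjusted p below 0.05, limma called 1 of 10 members higher and 0 lower, against 2.18% of all genes higher and 1.75% lower. The members were chosen with earlier results of these data known, so the counts of members given here are no independent finding. In 3 members (Dusp1, Dusp10 and Dusp16) both mutants lay above both wild-types, against 16.8% of all genes, and in 2 (Dusp5 and Dusp7) both lay below, against 16.5%. Together the groups did not overlap in 5 of 10 members and in 33.3% of all genes. The median log2 fold change was 0.035 over the members and 0.00673 over all genes.

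**Figure D1:**
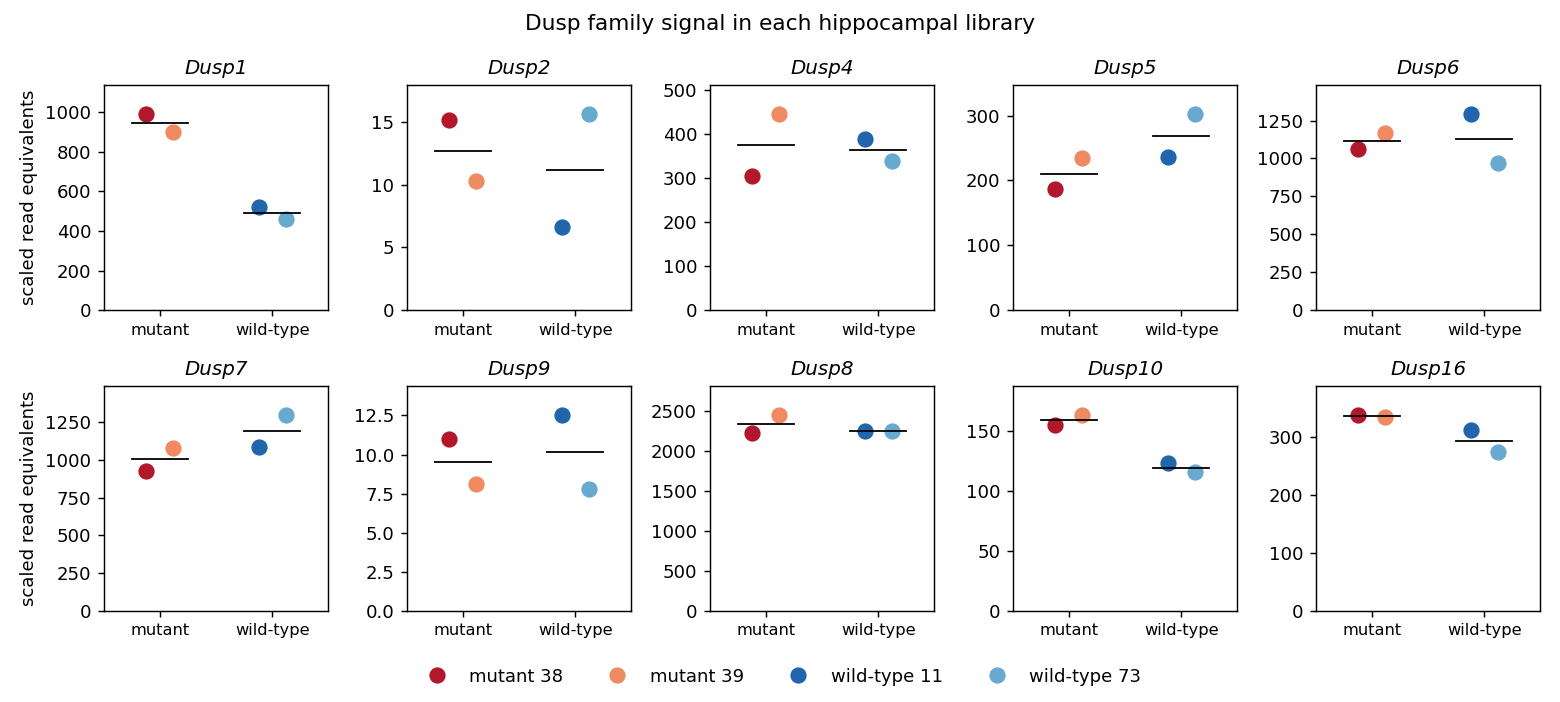
Scaled read equivalents (y axis, from 0, with its own range in each panel) of the 10 Dusp genes, with 1 point per library, mutants left and wild-types right, and a line at each group mean. Dusp1 has 989 and 902 in the mutants, above 522 and 459 in the wild-types, while the points of Dusp2, Dusp4, Dusp6, Dusp8 and Dusp9 overlap between groups.

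Among the inducible nuclear enzymes, Dusp1 encodes MKP-1, an immediate early phosphatase that acts on p38, JNK and ERK. Dusp1 had 989 and 902 scaled read equivalents in mutants 38 and 39, against 522 and 459 in wild-types 11 and 73. The lower mutant was well above the higher wild-type, and the libraries of each group lay close together. This was a log2 fold change of 0.95 ± 0.12 (SE, n = 2 each; interval at 95%, 0.66 to 1.23; limma unadjusted p = 0.000112, adjusted p = 0.152). It ranked 13th of 18127 genes by p-value. The authors' deposited table gives Dusp1 a p of 4.2e-08, ranked 14th among the genes tested here. After a Benjamini-Hochberg adjustment made here over all records of the authors' deposited table, Dusp1 alone of the 10 members remained below 0.05 (adjusted p = 5.71e-05), against 0.248% of all genes. These are 2 tests on the same 4 libraries.

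The call for Dusp1 in limma depended on how the libraries were treated. Without wild-type 11 its log2 fold change was 1.04 and its adjusted p was 0.0389 with the filter on low values applied to the 3 libraries kept. With the filter applied to all 4 libraries, the same fold change had an adjusted p of 0.192, so the call without wild-type 11 rests on that filter, which was chosen after the value of 0.192 had been seen. With a covariate for the choroid plexus markers, which left 1 residual degree of freedom, the log2 fold change was 0.94 and the adjusted p was 0.000756. A block of the pairs alike in these markers, mutant 38 with wild-type 11 and mutant 39 with wild-type 73, was added after the data were seen and also left 1 residual degree of freedom. It gave 0.95 with an adjusted p of 0.00312. Over 15 alternatives, not counting that block or the fits with 1 library left out and the filter on all 4, the adjusted p lay between 0.000756 and 0.614, and the log2 fold change between 0.86 and 1.04. Within the libraries rich in choroid plexus markers, mutant 38 minus wild-type 11, it was 0.92. Within the poor ones, mutant 39 minus wild-type 73, it was 0.97.

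The summed markers of 3 other cell types also lay higher in both mutants. The sum of 9 oligodendrocyte markers was 108900 and 96490 in mutants 38 and 39, against 88410 and 63940 in wild-types 11 and 73, and 9 of 9 were higher in both mutants. The sum of 7 red blood cell genes was 6766 and 7977 in the mutants, against 6402 and 4707 in the wild-types, with 5 of 7 higher and 1 lower in both. The sum of 8 microglia markers was 5267 and 5356 in the mutants, against 5208 and 5000 in the wild-types, with 3 of 8 higher and 1 lower in both. The sum of 9 endothelial markers was 3772 and 3408 in the mutants, against 3429 and 3314 in the wild-types, which overlap. Of these, 3 of 9 were higher and 2 lower in both mutants. Among all genes tested, 16.8% were higher and 16.5% lower in both mutants. The sums of 11 neuron markers overlapped (100100 and 110900 in the mutants, against 94000 and 114100 in the wild-types). So did those of 8 astrocyte markers (112500 and 120900, against 114300 and 110900). None of the markers in these lists was at 0 in any library. Their part in the Dusp1 difference was not tested. In tissue RNA, more cells of a type and more RNA per cell cannot be told apart.

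Promoter sequences are shown for 3 members that illustrate the range of responses: Dusp1, the member with the largest difference between groups, Dusp5, the member with the most negative log2 fold change, and Dusp8, the member with the highest level per length in both groups. Each sequence is from RefSeq on the GRCm38.p6 build and runs from 250 to 51 bases before the annotated start. It is written 5′ to 3′ on the strand of the gene. Counted from that start, the GENCODE transcript used below for length begins at -47 in Dusp1, -36 in Dusp5 and 12 in Dusp8. Positions of matches therefore depend on the annotation. The read values come from build mm9, so the coordinates do not belong to the deposited table. Capitals mark the cAMP response element TGACGTCA, its core TGACG or CGTCA, and the CArG box, the site bound by serum response factor.
Dusp1, chr17:26508523-26508722, minus strand: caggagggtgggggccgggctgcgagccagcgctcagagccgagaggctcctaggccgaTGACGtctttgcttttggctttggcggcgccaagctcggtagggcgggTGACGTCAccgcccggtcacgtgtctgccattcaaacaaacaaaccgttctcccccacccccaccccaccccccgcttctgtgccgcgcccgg
Dusp5, chr19:53528895-53529094, plus strand: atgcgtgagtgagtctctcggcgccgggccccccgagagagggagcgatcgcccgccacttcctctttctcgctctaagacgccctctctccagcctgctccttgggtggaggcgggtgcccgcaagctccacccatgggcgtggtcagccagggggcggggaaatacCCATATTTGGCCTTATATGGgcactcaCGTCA
Dusp8, chr7:142095335-142095534, minus strand: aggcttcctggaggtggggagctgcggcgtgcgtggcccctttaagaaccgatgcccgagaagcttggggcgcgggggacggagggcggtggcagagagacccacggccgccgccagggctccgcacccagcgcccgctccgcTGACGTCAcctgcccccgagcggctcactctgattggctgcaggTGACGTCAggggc

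The window of 250 bases before the start was searched on both strands in the 8 members with a promoter entry. TGACGTCA matched in 2 of them, once in Dusp1, beginning 143 bases before the start, and at 2 places in Dusp8, 107 and 63 bases before it. It matched in 1.55% of 32851 promoter windows of the same length. The core TGACG, which lies within every full element on both strands, matched in 4 of 8 (Dusp1, Dusp5, Dusp8 and Dusp16), against 17.8% of all windows. The AP-1 site TGANTCA matched in 0 of 8, against 6.75%, and the GC box GGGCGG in 6 of 8, against 32.7%. The CArG box was searched after the sequences had been seen. It matched in 1 of 8 members, at 2 adjoining places in Dusp5 that begin 82 and 72 bases before the start, and in 1.47% of all windows. A full cAMP response element was thus present in Dusp1, which differed most between the groups, and in Dusp8, which had a log2 fold change of 0.05. These are matches of letters, and no binding was measured.

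Dusp4 encodes MKP-2, a nuclear phosphatase of ERK and JNK. It had 306 and 445 scaled read equivalents in mutants 38 and 39, against 390 and 340 in wild-types 11 and 73. The mutants were the lowest and the highest of the 4 libraries, so the groups overlapped. On the log2 scale the difference was 0.02 ± 0.20 (SE, n = 2 each; interval at 95%, -0.45 to 0.49; limma adjusted p = 0.997). It was -0.35 between mutant 38 and wild-type 11 and 0.39 between mutant 39 and wild-type 73.

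Dusp5 encodes a nuclear phosphatase specific for ERK. It had 187 and 234 scaled read equivalents in mutants 38 and 39, against 235 and 302 in wild-types 11 and 73. Both mutants were lower than both wild-types, but mutant 39 and wild-type 11 nearly coincided. On the log2 scale the mutants differed by -0.35 ± 0.19 (SE, n = 2 each; interval at 95%, -0.81 to 0.11; limma adjusted p = 0.989).

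Dusp2, or PAC-1, is best known from activated lymphocytes. Its signal was low, at 15.2 and 10.3 scaled read equivalents in mutants 38 and 39, against 6.66 and 15.6 in wild-types 11 and 73. Before scaling this was 18.0 and 11.4 read equivalents in the mutants, and 7.98 and 10 in the wild-types. At this depth a difference between the groups was not detectable (log2 fold change 0.26 ± 0.52, SE, n = 2 each).

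Among the cytoplasmic phosphatases of ERK, Dusp6 encodes MKP-3, a feedback inhibitor induced by ERK signalling. It had 1065 and 1170 scaled read equivalents in mutants 38 and 39, against 1291 and 972 in wild-types 11 and 73. Both mutants lay between the wild-types, and the wild-types differed from each other by 0.41 on the log2 scale. The group difference was -0.0046 ± 0.15 on the log2 scale (SE, n = 2 each; interval at 95%, -0.36 to 0.35; limma adjusted p = 0.998). It was -0.28 between mutant 38 and wild-type 11 and 0.27 between mutant 39 and wild-type 73.

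Dusp7, also called MKP-X, is a close relative of Dusp6. It had 926 and 1081 scaled read equivalents in mutants 38 and 39, against 1087 and 1298 in wild-types 11 and 73. Both mutants were lower than both wild-types, although mutant 39 and wild-type 11 nearly coincided. Its log2 fold change of -0.25 ± 0.13 did not pass (SE, n = 2 each; interval at 95%, -0.56 to 0.07; limma adjusted p = 0.989).

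Dusp9, or MKP-4, is an X-linked phosphatase needed in the placenta. It had 10.97 and 8.13 scaled read equivalents in mutants 38 and 39, against 12.5 and 7.81 in wild-types 11 and 73. Only 5 to 15 read equivalents per library lay behind these values before scaling. The groups overlapped, and a difference was not detectable at this depth (log2 fold change -0.06 ± 0.47, SE, n = 2 each).

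Among the phosphatases of JNK and p38, Dusp8 is known for its expression in brain. It had 2227 and 2452 scaled read equivalents in mutants 38 and 39, against 2256 and 2255 in wild-types 11 and 73. The wild-types lay between the mutants. The difference of 0.05 ± 0.10 on the log2 scale was smaller than its error (SE, n = 2 each; limma adjusted p = 0.989), and its 95% interval of -0.18 to 0.28 was the narrowest among the 10 members.

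Dusp10 encodes MKP-5, which acts on p38 and JNK. It had 155 and 163 scaled read equivalents in mutants 38 and 39, against 123 and 115 in wild-types 11 and 73. Both mutants were higher, and the libraries of each group lay close together. The log2 fold change of 0.41 ± 0.18 was the second highest of the family and did not pass (SE, n = 2 each; interval at 95%, -0.01 to 0.84; limma unadjusted p = 0.0553, adjusted p = 0.989).

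Dusp16 encodes MKP-7, a phosphatase of JNK. Its record with the higher mean had 338 and 335 scaled read equivalents in mutants 38 and 39, against 312 and 275 in wild-types 11 and 73. Both mutants were higher, by 0.20 ± 0.14 on the log2 scale (SE, n = 2 each; interval at 95%, -0.13 to 0.53; limma adjusted p = 0.989). The second record had 275 and 286 in the mutants, against 244 and 219 in the wild-types. In this record too both mutants were higher. A read can be in both, so the second is no separate measurement.

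**Figure D2:**
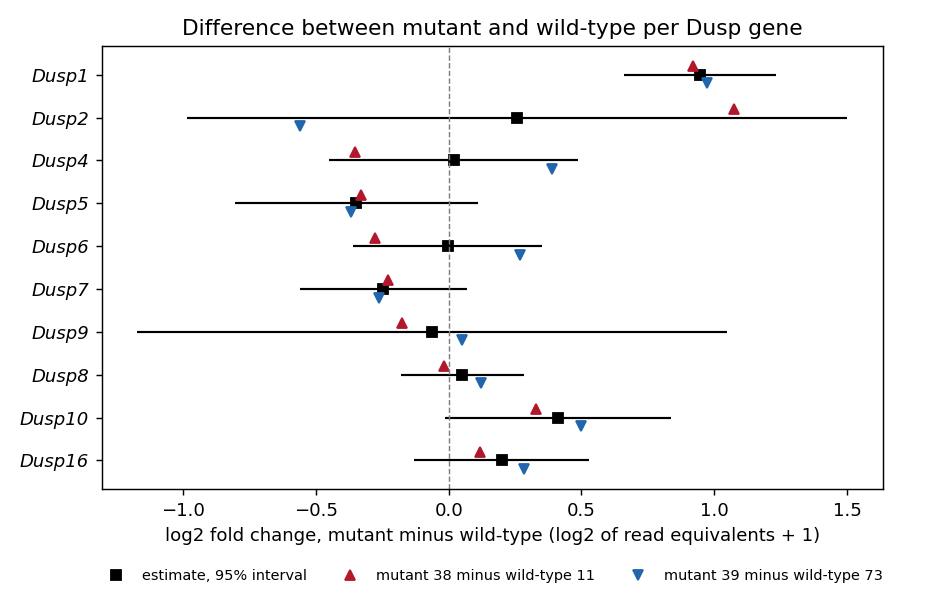
Log2 fold change of each Dusp gene, mutant minus wild-type (x axis, on log2 of read equivalents plus 1), with the limma estimate and 95% interval as a square and line, and the differences within the choroid plexus-rich libraries (mutant 38 minus wild-type 11) and the poor ones (mutant 39 minus wild-type 73) as triangles. The interval of Dusp1, from 0.66 to 1.23, is the only one of the 10 that leaves out 0, and the triangles of Dusp2, Dusp4, Dusp6, Dusp8 and Dusp9 fall on opposite sides of 0.

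To compare members with each other, levels were divided by transcript length, taken from the GENCODE M21 transcript that is matched to the RefSeq record. In the mutants the order of mean read equivalents per kilobase was Dusp8 (487), Dusp1 (475), Dusp6 (400), Dusp7 (312), Dusp4 (137), Dusp5 (85.2), Dusp16 (65.9), Dusp10 (56.9), Dusp2 (7.86) and Dusp9 (3.51). In the wild-types it was Dusp8 (470), Dusp6 (405), Dusp7 (371), Dusp1 (246), Dusp4 (133), Dusp5 (109), Dusp16 (57.4), Dusp10 (42.7), Dusp2 (6.89) and Dusp9 (3.74). Dusp1 was thus 2nd in the mutants and 4th in the wild-types, and the other 9 genes kept their order among themselves. Neighbours whose library values overlapped were Dusp8 and Dusp1 in the mutants, and Dusp6 and Dusp7 as well as Dusp2 and Dusp9 in the wild-types. The levels spanned a wide range, with 8 members between 41.3 and 510 read equivalents per kilobase over the libraries, Dusp2 between 4.12 and 9.66, and Dusp9 between 2.87 and 4.60.

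The share of each gene within the family does not depend on the scaling of a library. Dusp1 made up 25.5% and 21.5% of the summed level per kilobase of the 10 genes in mutants 38 and 39, against 13.9% and 12.8% in wild-types 11 and 73. Dusp8 made up 23.7% and 24.2% in the mutants, against 24.9% and 26.0% in the wild-types. Dusp7 had 14.8% and 16.0% in the mutants, against 18.0% and 22.4% in the wild-types. Dusp10 had 2.84% and 2.77% in the mutants, against 2.34% and 2.29% in the wild-types, so its share was also higher in both mutants. These shares sum to a whole and are not independent of each other.

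Summed over classes, the 4 inducible nuclear genes had 694 and 717 read equivalents per kilobase in mutants 38 and 39, against 504 and 487 in wild-types 11 and 73. The 3 cytoplasmic ERK phosphatases had 673 and 758 in the mutants, against 805 and 755 in the wild-types. The 3 JNK and p38 phosphatases had 585 and 634 in the mutants, against 575 and 565 in the wild-types. The nuclear sum and the JNK and p38 sum were higher in both mutants, and the cytoplasmic sums overlapped. Without Dusp1, the other 3 nuclear genes summed to 197 and 264 in the mutants, against 242 and 256 in the wild-types, which overlap. An exact two-sided permutation of 4 libraries gives such a sum a p of 0.333 at the least, so these sums are given without a test.

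**Figure D3:**
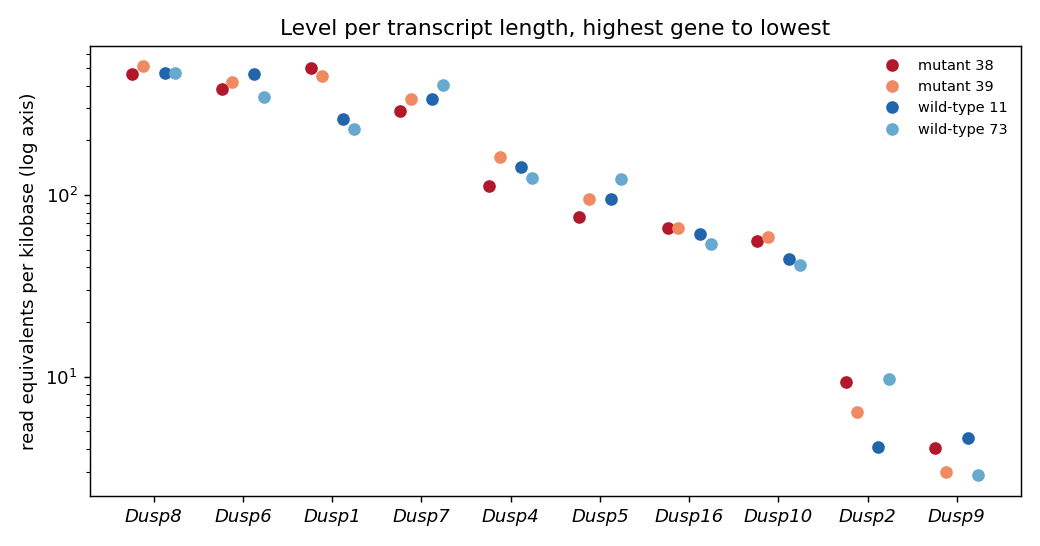
Read equivalents per kilobase of transcript (log axis) for the 10 Dusp genes, ordered by their mean over all 4 libraries, with mutants to the left of wild-types within each gene. Dusp1 has 497 and 453 in the mutants, beside Dusp8, and 262 and 231 in the wild-types, while Dusp2 and Dusp9 lie lowest, between 2.87 and 9.66.

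The 137 other genes of 10 lists around the MAP kinase pathway were then read from the same fit, of which 134 were tested. None passed an adjusted p of 0.05 in limma, and at an unadjusted p below 0.05 there were 12 higher and 5 lower genes. Among all genes tested, 2.18% were higher and 1.75% lower at that threshold. By position 27 of the 134 were higher and 22 lower in both mutants, against 16.8% and 16.5% of all genes. Their median log2 fold change was 0.03. Of the 12 higher genes, 8 came from 1 list, the genes induced by glucocorticoids. That list was written with an earlier result on some of its genes known, so this count is no independent finding.

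The other dual-specificity phosphatases, most of which lack a kinase-binding domain, had 0 of 15 tested genes with an unadjusted p below 0.05. Among all genes, 2.18% were higher and 1.75% lower at that threshold. The median log2 fold change of these 15 phosphatases was 0.07. The member with the smallest p was Dusp18, at -0.22 ± 0.14 (SE, n = 2 each). The remaining phosphatases that act on MAP kinases had 0 of 7 and a median of 0.08. Ptpn5, the neuronal tyrosine phosphatase STEP, had 1121 and 1038 scaled read equivalents in mutants 38 and 39, against 761 and 1020 in wild-types 11 and 73. Mutant 39 and wild-type 73 nearly coincided, and the difference between groups was 0.29 ± 0.15 on the log2 scale (SE, n = 2 each; limma adjusted p = 0.989).

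The kinases that these enzymes act on and the kinases above them were counted in the same way. Of 14 MAP kinases, 0 were higher and 1 was lower at an unadjusted p below 0.05 in limma, against 2.18% of all genes higher and 1.75% lower. By position, both mutants lay above both wild-types in 3 of 14 and below in 2, against 16.8% and 16.5% of all genes, and the median log2 fold change was 0.091. The lower gene was Mapk7, the gene of ERK5, with 246 and 218 scaled read equivalents in mutants 38 and 39, against 277 and 340 in wild-types 11 and 73 (log2 fold change -0.40 ± 0.17 SE, limma unadjusted p = 0.0452). Mapk3, the gene of ERK1, had 905 and 811 in the mutants, against 984 and 1007 in the wild-types (-0.22 ± 0.11 SE, limma unadjusted p = 0.0853). Mapk4, the gene of the atypical kinase ERK4, was higher in both mutants (0.20 ± 0.11 SE). Of 7 MAP2 kinases none reached an unadjusted p of 0.05 in limma, and Map2k3, an activator of p38, had the smallest p (-0.41 ± 0.19 SE).

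Of 18 MAP3 kinases tested, 2 were higher and 0 lower at an unadjusted p below 0.05, against 2.18% and 1.75% of all genes. By position 5 were higher and 2 lower in both mutants, against 16.8% and 16.5% of all genes. Map3k6, a stress-responsive relative of the kinase ASK1, had 186 and 146 scaled read equivalents in mutants 38 and 39, against 58.8 and 104 in wild-types 11 and 73 (log2 fold change 1.07 ± 0.30 SE, limma unadjusted p = 0.00953). Both mutants were higher, and the wild-types were far apart. Without wild-type 11 its log2 fold change was 0.67. Map3k15 was the other (0.38 ± 0.13 SE). Of 16 Ras and scaffold genes and 11 kinases activated by MAP kinases, none reached an unadjusted p of 0.05. Among the kinases activated by MAP kinases 1 of 11 genes was higher and 4 were lower in both mutants, against 16.8% and 16.5% of all genes. The lower ones included Rps6ka2, a ribosomal S6 kinase, at -0.30 ± 0.14 (SE, n = 2 each).

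Other feedback inhibitors of ERK signalling went both ways. Of 9, 1 was higher and 1 lower at an unadjusted p below 0.05, against 2.18% and 1.75% of all genes. By position 2 were higher and 3 lower in both mutants, against 16.8% and 16.5% of all genes, and the median log2 fold change was -0.0068. Errfi1, an inhibitor of the EGF receptor, had 2463 and 1526 scaled read equivalents in mutants 38 and 39, against 984 and 1060 in wild-types 11 and 73 (log2 fold change 0.92 ± 0.21 SE, limma adjusted p = 0.823). Without mutant 38 the log2 fold change of Errfi1 was 0.58. Il17rd, an inhibitor of FGF signalling also named Sef, had 180 and 154 in the mutants, against 273 and 233 in the wild-types (-0.59 ± 0.17 SE, limma adjusted p = 0.989). Among 25 factors and early genes that ERK is known to induce or act on, 1 was higher and 3 were lower at that threshold, 3 were higher and 8 lower in both mutants by position, and the median was 0.00067. Arc, a synaptic gene induced by activity, had 1344 and 1647 in the mutants, against 3354 and 2884 in the wild-types (-1.06 ± 0.13 SE, limma adjusted p = 0.149). Junb had -0.45 ± 0.12 and Ier2 had 0.84 ± 0.31 on the log2 scale (SE, n = 2 each), and Ier2 had 0.50 without wild-type 73. Dusp1 is commonly grouped with such early genes, and here these went both ways. The difference of Dusp1 had the opposite sign to those of Arc and Junb and the same sign as that of Ier2.

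Genes induced by glucocorticoids were listed because Dusp1 is a known target of the glucocorticoid receptor. Of 12, 8 were higher at an unadjusted p below 0.05 in limma and 0 were lower, against 2.18% and 1.75% of all genes, and the median log2 fold change was 0.38. By position, 8 of 12 had both mutants above both wild-types and 0 had both below, against 16.8% and 16.5% of all genes. Sgk1, a kinase that regulates ion transport, had 5503 and 4523 scaled read equivalents in mutants 38 and 39, against 2528 and 2803 in wild-types 11 and 73 (0.91 ± 0.13 SE, limma adjusted p = 0.177). Nfkbia, an inhibitor of NF-kappa B, had 1108 and 954 in the mutants, against 501 and 636 in the wild-types (0.86 ± 0.15 SE, limma adjusted p = 0.394). Tsc22d3, which encodes GILZ, had 1530 and 1476 in the mutants, against 964 and 1054 in the wild-types (0.58 ± 0.10 SE, limma adjusted p = 0.420). The list was written with an earlier result on some of its genes known, and corticosterone was not measured.

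**Figure D4:**
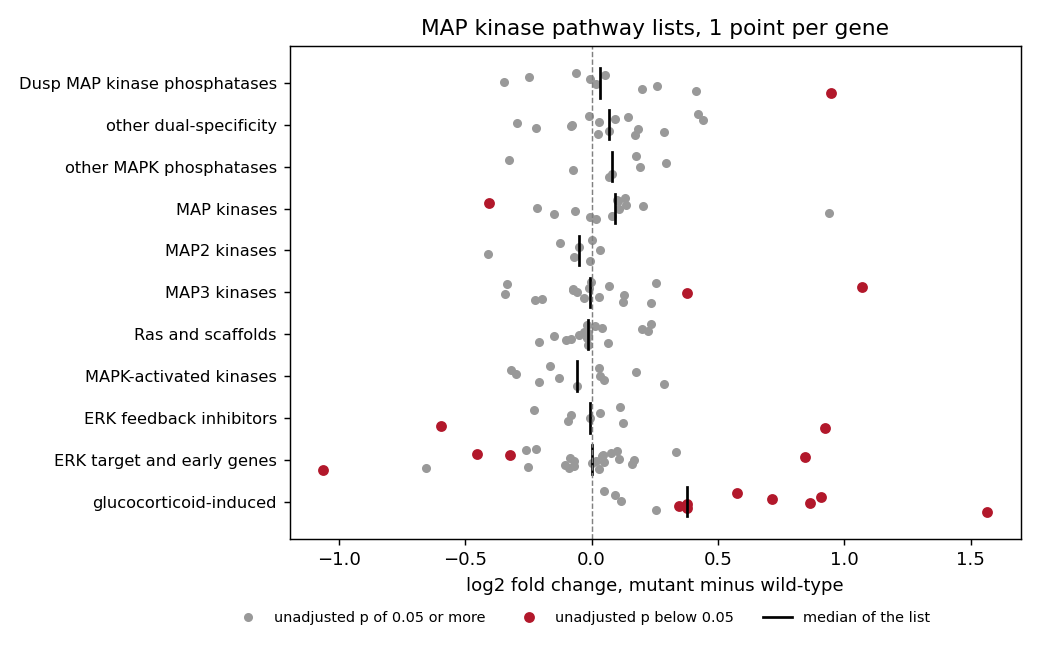
Log2 fold change (x axis, mutant minus wild-type) of each tested gene in the Dusp family and 10 lists around it, 1 point per gene, with a black bar at the median of each list and red points where the unadjusted limma p was below 0.05. The medians lie between -0.06 and 0.09 for 10 of the 11 lists and at 0.38 for the glucocorticoid-induced genes. The latter list was written with an earlier result on some of its genes known.

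The genes whose pattern over the 4 libraries was most like that of Dusp1 were sought among 11673 genes with a mean of at least 100 scaled read equivalents. Likeness was the root mean square distance between log2 values centred on the mean of each gene, and over 4 libraries it describes mainly the difference between the groups. The 5 nearest were Id1 (distance 0.073), Hist1h1c (0.0762), Arl4d (0.0776), Csrnp1 (0.0828) and Penk (0.0932). Id1, an inhibitor of helix-loop-helix transcription factors, had 424 and 348 scaled read equivalents in mutants 38 and 39, against 209 and 201 in wild-types 11 and 73. Hist1h1c, a linker histone gene, had 1004 and 913 in the mutants, against 499 and 509 in the wild-types. Csrnp1, a nuclear protein gene, had 385 and 323 in the mutants, against 194 and 192 in the wild-types. In all 5 genes both mutants were above both wild-types, which follows from the way they were chosen. In the fit with all 4 libraries and no covariate, the lowest limma adjusted p among them was 0.123, for Hist1h1c.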

How the data were processed

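Ribosome-depleted total RNA of 4 hippocampal samples was sequenced from a single end with strand kept, per the labels' protocols. GSNAP, DESeq2 and build mm9 are named in the submitters' processing notes, without versions. How reads were counted, and with which strand setting, is not given in the sources used here. The authors deposited signal and a p-value for each of 31315 RefSeq records. The column name attributes the p-value to DEseq, with no word on adjustment. The signal was read here as aligned bases summed over a record and divided by 1 factor per library, which the column names do not state. In each library 100% of the low values were whole multiples of 1 step, within 0.05 of a step.

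Values were divided by 42. A gene needed at least 1 read equivalent in 2 libraries. The test was limma (version 3.58.1, R 4.3.3) on log2 values with a pseudocount of 1, with a variance trend, two-sided, and with Benjamini-Hochberg adjustment over 18127 genes. Fold changes are on that scale, which understates changes of low genes. The script was tested on simulated data beforehand. Tables and plots were made with Python 3.11.15 and matplotlib 3.10.9. The count tests for whole reads were not used, since the values are bases. Named genes were the members, Atp6ap2, the 3 genes of smallest p in each list, and the 5 genes nearest to Dusp1, and not all are reported. Members and lists were chosen with earlier results of these data known.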

Additional observations from a re-analysis of the deposited data

How the results depend on the processing

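Of 15 alternatives, 9 left the count of genes passing at 1, as in the fit with all 4 libraries. The count was 0 without a variance trend, 12 with a robust variance prior (8 higher) and 78 with the choroid plexus covariate (54 higher), and it ran from 1 to 37 when 1 library was left out, with the highest value without wild-type 11. The count of Dusp members passing was 0, and it was 1, Dusp1, with the choroid plexus covariate. It ran from 0 to 1 when 1 library was left out. The cause of these changes was not tested. Dusp1, Dusp5, Dusp7, Dusp10 and Dusp16 kept their direction under all 15 alternatives, but with 1 library left out the log2 fold change ran from -0.53 to -0.17 for Dusp5, from -0.38 to -0.12 for Dusp7 and from 0.11 to 0.29 for Dusp16. Among other genes with a kept direction it ran from 0.58 to 1.27 for Errfi1, from 0.50 to 1.19 for Ier2, from 0.67 to 1.47 for Map3k6, from 0.23 to 0.53 for Map3k15, from -0.55 to -0.26 for Mapk7, from -0.30 to -0.14 for Mapk3, from 0.11 to 0.30 for Mapk4, from -0.47 to -0.13 for Rps6ka2, from 0.081 to 0.50 for Ptpn5 and from -0.34 to -0.10 for Dusp18. The other members changed direction only when 1 library was left out. The log2 fold change then ran from -0.30 to 0.82 for Dusp2, from -0.25 to 0.29 for Dusp4, from -0.21 to 0.20 for Dusp6, from -0.018 to 0.12 for Dusp8 and from -0.37 to 0.25 for Dusp9. It ran from -0.056 to 0.13 for Atp6ap2, from -0.15 to 0.0070 for Map2k2 and from -0.30 to 0.048 for Map2k6. In these fits the filter was applied to the 3 libraries kept, and a group of 1 library was assumed to vary like the other. That filter was chosen after a first version, with the filter on all 4 libraries, had been seen. In that version 0 genes and 0 Dusp members passed whichever library was left out, with 471 to 1711 genes at an unadjusted p below 0.05, and Dusp1 had adjusted p values of 0.192 to 1. Fold changes of the named genes do not depend on this filter, and directions turned at the same values, among them -0.00080 for Dusp2, 0.063 for Dusp6 and 0.0067 for Map2k6 without mutant 38 and -0.081 for Dusp4 without wild-type 73. No paired analysis was possible from the labels alone, because the groups share no replicate number in them. A block of the pairs alike in choroid plexus markers, chosen after the data were seen, gave 69 genes passing (50 higher) and 1 Dusp member, Dusp1. Arc, Errfi1, Sgk1, Nfkbia and Tsc22d3 passed with it too. Depth limited Dusp2 and Dusp9.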
